A study of Saccharomyces cerevisiae with 4 samples.

Results

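The distal right arm of chromosome IV is the outer part, far from the centromere, of the arm that is longest in the reference build R64. It was taken as rows 750 to 1020 of the 25 °C contact map, and the matching fragments of the 37 °C map, out of 4382 restriction fragments that could be paired between the maps. After the fragments with the lowest totals had been left out, which removed 3 of these rows, 268 fragments remained of 4282 in the genome. The choice used row numbers only. In the recovered geometry, chromosome IV took 550 fragments with its centromere at row 644 and a right arm of 387 fragments, so the members lay 106 to 376 fragments from the centromere and stopped 11 fragments before the end. By interpolation this corresponds to about 746 to 1501 kb of chromosome IV in build R64, or about 296 to 1051 kb from the centromere, at about 2.8 kb per fragment. The same stretch held rows 749 to 1019 of the 37 °C map. Fragment totals correlated at 0.77 across fragments on the log scale with that shift of -1, against 0.19 or less at every other shift from -4 to 4.

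In budding yeast, centromeres are held near the spindle pole body, the arms extend away from it, and telomeres are anchored at the nuclear envelope. In such a polarised (Rabl) arrangement the position of a locus follows from its distance along the arm to the centromere, and loci at similar distances meet more often. The ribosomal DNA on the right arm of chromosome XII forms the nucleolus, which lies opposite the spindle pole body. A stretch far out on a long arm is therefore known to be remote from the centromere cluster.

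Hi-C, in which fixed chromatin is cut, ligated and sequenced so that joined ends report loci that were close together, was carried out on strain BY4742, a haploid laboratory strain of Saccharomyces cerevisiae. Cells from a culture in rich medium (YPD) at 25 °C were divided. The control group was fixed at 25 °C in 3% formaldehyde. The heat-shock group received 1 volume of fresh medium prewarmed to 49 °C, was kept at 37 °C for 15 minutes and was fixed in 3% formaldehyde at 37 °C, and each group had 2 biological replicates. Effects of temperature, of fresh medium and of the temperature of fixation cannot be told apart in this design.

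Replicates had been combined by the authors into 1 map per temperature, so no difference between temperatures has a replicate check and none was tested. In all, 5920062 contacts were counted at 25 °C and 1937970 at 37 °C. The arm made up 6.18% of fragments and 5.41% of contact ends at 25 °C and 5.82% at 37 °C. Its fragments had a median total of 2388 contacts at 25 °C (range 10 to 3925) and 670 at 37 °C (range 5 to 2732), against 2730 and 718 over all fragments. Its contacts with other chromosomes numbered 525321 and 162737. Ratios below are observed over expected contacts, where the expectation matches the inter-chromosomal total of each fragment, so that a ratio of 1 is the average rate. Intervals are exact 95% intervals and cover counting error only.

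One feature of the maps touches every comparison between temperatures. In each map a fragment has a fitted factor that stands for its inter-chromosomal total, and 39 of the 268 arm fragments (14.6%) had a factor ratio of 37 °C over 25 °C above 2 times the median, against 13.5% of all fragments. They are called raised fragments here. Values without them are given beside most comparisons between temperatures. They were not computed for the rates at matched distance, the profile along XII right, arm regions by segment or single partner fragments. Nor were they computed for single ends, other long arms or the separation curve. In all of these the part of raised fragments in the results was not tested. Shares over all fragments, over all windows or over other arms were computed only with raised fragments kept. Counts without raised fragments therefore have no such share beside them.

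The arm met the centromere regions of the other chromosomes, defined as 7 fragments to each side of the centromere, far below the average rate in both maps, and the ratio was higher at 37 °C. At 25 °C 8016 contacts were observed and the ratio was 0.221 (0.216 to 0.226). At 37 °C 3769 contacts gave a ratio of 0.372 (0.360 to 0.384). The log2 ratio of 37 °C over 25 °C was 0.75 (0.69 to 0.81), and it ranged from 0.73 to 0.77 when each partner chromosome was left out in turn. When raised fragments were left out, the arm stood at 0.191 and 0.286, with a log2 ratio of 0.58 (0.51 to 0.66).

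Contacts with arm regions, which lie 100 or more fragments from their own centromere and outside the chromosome ends, were above the average rate. In the 25 °C map the ratio was 1.55 (1.54 to 1.55) and in the 37 °C map it was 1.40 (1.39 to 1.41). The corresponding log2 ratio was -0.14 (-0.15 to -0.13). With partner fragments 200 or more from their centromere the ratios were 1.76 and 1.56, a log2 ratio of -0.18 (-0.20 to -0.15). Both log2 values were smaller in size when raised fragments were left out, namely -0.07 (-0.08 to -0.05) and -0.05 (-0.09 to -0.02). Contacts with chromosome ends, the last 11 fragments of each arm, stood at 0.946 (0.935 to 0.956) and 0.961 (0.943 to 0.980), and the interval of their log2 ratio of 0.02 included 0 (-0.01 to 0.06).

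Since expected contacts sum to the observed total of every fragment, a higher ratio with 1 class of partners goes with lower ratios elsewhere, and the class values are not independent of each other. Expressed as the distance of the ratio from 1, the 37 °C value was 0.81 of the 25 °C value for centromere regions and 0.74 for arm regions, both nearer to 1. It was 0.88 for both classes once the raised fragments were removed. The same classes seen from the arm regions of all other chromosomes gave 0.279 and 0.418 with centromere regions, a log2 ratio of 0.59 (0.56 to 0.61). Among themselves those regions stood at 1.35 and 1.26, a log2 ratio of -0.10 (-0.10 to -0.09). The distal right arm of IV thus had the lower ratio with centromeres in both maps and the higher ratio with arm regions, at a greater distance from its centromere than most of the regions it was set against.

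A graded profile appeared when partners were sorted by distance from their own centromere. At 25 °C the ratio was 0.363 with partners 8 to 19 fragments from their centromere and 0.625 with partners 20 to 49 fragments away. It was 1.06 at 50 to 99 fragments, 1.39 from 100 up to 150, 1.60 from 150 up to 200, 1.69 from 200 up to 300 and 1.87 (1.81 to 1.94) beyond. Each class lay above the one before it, and no neighbouring intervals overlapped. The 37 °C profile kept this order and was flatter, from 0.511 in the 8 to 19 class and 0.710 in the 20 to 49 class to 1.5 from 200 up to 300 and 1.70 (1.60 to 1.82) beyond.

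The log2 ratio between temperatures changed sign along this profile. It was 0.75 next to the centromere, 0.49 (0.46 to 0.53) at 8 to 19 fragments and 0.18 (0.16 to 0.20) at 20 to 49. At 50 to 99 fragments it was -0.03 (-0.04 to -0.01), from 150 up to 200 it was -0.17 (-0.19 to -0.15), and from 300 fragments on it was -0.13 (-0.24 to -0.03). With chromosome ends left out of the classes, the farthest class rested on 5 fragments of chromosome XII alone, at 1.84 (1.74 to 1.95) and 1.88 (1.69 to 2.08), and there the 37 °C value was not the lower one. Once the raised fragments were removed, the log2 ratio was 0.36 (0.31 to 0.41) at 8 to 19 fragments and 0.10 (0.07 to 0.13) at 20 to 49. It was then -0.09 (-0.12 to -0.07) from 150 up to 200, and its interval from 300 on included 0 (-0.21 to 0.07).

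**Figure D1:**
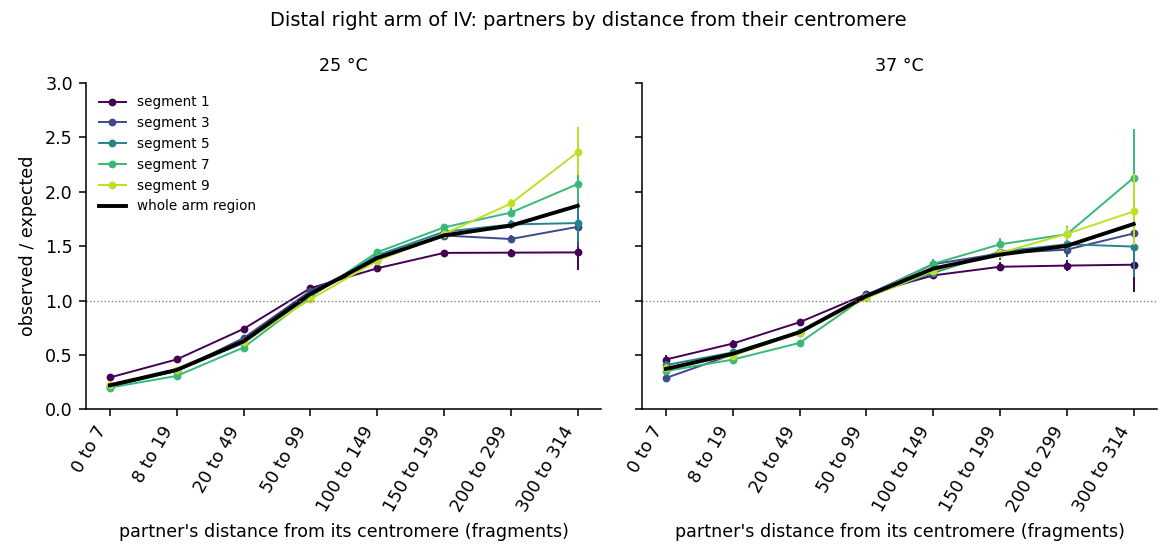
Observed over expected contacts of the distal right arm of IV (vertical axis) with partners on other chromosomes grouped by distance from the partner's centromere in fragments (horizontal axis), at 25 °C (left) and 37 °C (right). The black line is the whole arm stretch, coloured lines are 5 of its 9 segments from the inner (1) to the outer (9), and bars are 95% counting intervals. The whole-stretch line runs from 0.221 to 1.87 at 25 °C and from 0.372 to 1.70 at 37 °C.

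Partner chromosomes differed several-fold in their ratio with the arm. At 25 °C the lowest ratio was with chromosome I, at 0.310 (0.297 to 0.323), followed by VI at 0.398 (0.387 to 0.409) and III at 0.467 (0.456 to 0.478), the 3 shortest chromosomes. Chromosome IX stood at 0.708, and XI, VIII, X, V and II lay between 0.835 and 0.977. Chromosome XVI at 1.01, XIV at 1.06, XIII at 1.13, XV at 1.16 and VII at 1.21 followed. Chromosome XII was highest, at 1.36 (1.35 to 1.37). Intervals of neighbours in this order overlapped for VIII and X and for X and V, and for no other pair of neighbours.

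At 37 °C the lowest and highest partners were the same, with I at 0.431 (0.402 to 0.461), VI at 0.564 (0.543 to 0.586), III at 0.577 (0.554 to 0.600) and XII at 1.26 (1.24 to 1.28). The ratios of VI and III were no longer separated by their intervals. The log2 ratio was 0.51 (0.44 to 0.57) for VI, 0.48 (0.36 to 0.59) for I and 0.30 (0.24 to 0.37) for III, and -0.11 (-0.13 to -0.09) for XII. Its interval lay above 0 for 8 of 15 partner chromosomes, against 25.2% of the pairs of another chromosome arm with a partner chromosome, and below 0 for 6 of 15, against 14.8% of those pairs. The arm regions of other chromosomes held 23 to 204 fragments each, against 268 here, so their counts were lower and their intervals wider. These shares therefore cannot tell whether distal IV right differed between the maps more often than other arms. Chromosome XVI had an interval that included 0, from -0.03 to 0.03. Without the raised fragments the interval excluded 0 for 4 of 15 chromosomes, with I at 0.44, VI at 0.33, III at 0.24 and XII at -0.05.

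The ratio at each single partner centromere was higher at 37 °C. At 25 °C the ratio with the centromere region of a single chromosome ran from 0.185 (0.167 to 0.205) for I to 0.266 (0.245 to 0.287) for VIII. At 37 °C it ran from 0.272 (0.232 to 0.316) for XI to 0.460 (0.408 to 0.516) for IX. The log2 ratio was above 0 for 15 of 15 chromosomes, each with an interval above 0. It was highest for VI at 1.03 (0.82 to 1.24) and IX at 0.99 (0.77 to 1.21), and lowest for V at 0.35 (0.07 to 0.62). The order of the partners by their centromere region alone thus differed from their order by whole chromosome. The interval lay above 0 for 14 of 15 once the raised fragments were removed, with XI at 0.31 (-0.01 to 0.61) as the exception, and the value for IX was 0.81 (0.46 to 1.14). These values also depend on where a centromere was placed. When placed from the 37 °C map alone, the centromeres of 5 chromosomes moved, by up to 4 fragments for VIII and IX. With those positions all partners together gave a log2 ratio of 0.72 (0.66 to 0.77), IX gave 0.65 (0.38 to 0.91), VIII gave 0.29 (0.02 to 0.55), and the interval for XI included 0 (-0.03 to 0.55). IX was then no longer the highest at 37 °C, at 0.324, below VI at 0.436.

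Matching on distance from the centromere removed part of the order of chromosomes. For the 143 arm fragments up to row 893, which lie at least 106 and under 250 fragments from the centromere, the expectation was rescaled to the rate at which other chromosomes' fragments met in the same pair of distance classes. Against that rate the arm stood at 1.04 (1.04 to 1.04) at 25 °C and 1.03 (1.02 to 1.04) at 37 °C over all partners. Another 6 long arms treated in the same way stood between 0.990 and 1.01 at 25 °C. Those arms belong to the pool that set the rate, and chromosome IV does not. Their closeness to 1 is therefore largely built in and gives no scale for the value of IV. Chromosome I remained below the matched rate, at 0.704 (0.660 to 0.750) and 0.763 (0.688 to 0.845), as did VI at 0.749 (0.719 to 0.779) and 0.893 (0.843 to 0.944), III at 0.789 and 0.851, and IX at 0.846 and 0.850. Chromosome XII remained above it, at 1.24 (1.22 to 1.25) and 1.15 (1.12 to 1.17), and VII stood at 1.11 and 1.12. Distances were matched in map fragments, and the length of the ribosomal DNA on XII in these cells was not measured.

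At 25 °C the matched ratio was above 1 for 7 of 15 chromosomes and below 1 for 7, by interval, and at 37 °C for 5 and 5. The log2 ratio between temperatures then had an interval above 0 for 2 chromosomes, VI at 0.25 (0.15 to 0.35) and III at 0.11 (0.01 to 0.21). It lay below 0 for XII at -0.11 (-0.14 to -0.07) and XV at -0.04 (-0.07 to 0.00). This matching was devised with the data in view.

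The right arm of chromosome XII, which carries the ribosomal DNA, was the partner arm with the highest ratio. On 47250 contacts its arm region met distal IV right at 2.02 (2.00 to 2.04) in the 25 °C map, and on 12921 contacts at 1.72 (1.69 to 1.75) in the 37 °C map. The log2 ratio was -0.23 (-0.25 to -0.20). The next partner arms at 25 °C were XV right at 1.65 and 1.48, XIII right at 1.58 and 1.43, and VII right at 1.56 and 1.43. The lowest of 14 arm regions was IX left, at 1.09 (1.05 to 1.12) and 0.994 (0.929 to 1.06). For 13 of the 14 the interval of the log2 ratio lay below 0, and V right was the exception at -0.03 (-0.11 to 0.04). Without raised fragments XII right stood at -0.11 (-0.15 to -0.08), and the interval lay below 0 for 6 of the 14.

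Seen from chromosome XII, the preference ran the same way. Among 15 arm regions that its right arm met, distal IV right ranked 1 in both maps. XV right came next at 1.68 (1.66 to 1.70) and 1.54 (1.51 to 1.58), and IX left came last at 0.992 and 0.896. These ratios share the contacts given above and are not a separate measurement.

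Along XII right, contacts with distal IV right rose with distance from the centromere of XII and were highest from 150 up to 200 fragments. The ratio was 0.688 (0.664 to 0.714) at 20 to 49 fragments from the centromere of XII and 0.969 (0.944 to 0.994) at 50 to 99. It was 1.72 (1.69 to 1.75) from 100 up to 150 fragments, 2.18 (2.15 to 2.22) from 150 up to 200, 2.14 from 200 up to 250 and 2.04 beyond. The annotated ribosomal RNA genes of chromosome XII in R64, from 451786 to 489469, were placed by interpolation at 102 to 115 fragments from the centromere, inside the class in which the ratio first exceeded 1. Over all partner chromosomes the 25 °C ratio rose as well. It was 1.06 at 50 to 99 fragments, 1.39 from 100 up to 150 and 1.60 from 150 up to 200, so a rise with distance was not particular to XII right. At 37 °C the ratio along XII right was 0.935 at 50 to 99 fragments, 1.46 (1.41 to 1.51) from 100 up to 150 and 1.87 (1.80 to 1.94) from 150 up to 200. From 200 up to 250 fragments the log2 ratio was -0.26 (-0.31 to -0.20).

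Single partner fragments were also ranked. The ranking used the lower of their ratios in the 2 maps. The leading 5 of 3712 were rows 2888, 2900, 2931, 2907 and 2941 of the 25 °C map, and all 5 lay on XII right, 185 to 238 fragments from its centromere. Row 2888 had 297 contacts at 25 °C and a ratio of 2.62 (2.33 to 2.94), and 63 contacts at 37 °C and a ratio of 2.51 (1.93 to 3.21). Over all partner fragments the ratio had a median of 1.05 and 5th and 95th percentiles of 0.237 and 1.87 at 25 °C. No single pair of fragments among those of the 5 held more than 5 contacts, so the values rest on many pairs. These 5 were chosen by their values, and their intervals take no account of that. Their contacts are part of those of XII right given above and are not a separate measurement.

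Within distal IV right, the preference for XII right was strongest in the outer middle. For the 9 consecutive segments of 30 or 31 rows, numbered from the inner side, the ratio with the arm region of XII right at 25 °C was 1.72 in segment 1, 1.96 in segment 3, 2.12 in segment 5, 2.24 in segment 7 and 1.89 in segment 9. At 37 °C it was 1.52 in segment 1, 2.01 in segment 6, 1.98 in segment 7 and 1.54 in segment 9. XV right, by comparison, ran from 1.45 in segment 1 to 1.77 in segment 7 at 25 °C.

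Position along the arm was associated with a lower ratio at centromeres, most of it within the inner segments. At 25 °C the ratio with centromere regions was 0.293 (0.277 to 0.310) in segment 1, 0.247 in segment 2 and 0.219 in segment 3. It was lowest in segment 6, at 0.179 (0.166 to 0.194), and stood at 0.226 (0.211 to 0.241) in segment 9. At 37 °C the profile was uneven, with 0.458 (0.424 to 0.495) in segment 1, 0.288 (0.254 to 0.325) in segment 3, 0.407 (0.373 to 0.444) in segment 5 and 0.324 (0.292 to 0.359) in segment 8. Segment 3 was thus the lowest at 37 °C and not at 25 °C.

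All 9 segments had a higher ratio with centromere regions at 37 °C, and the size of the difference varied. The log2 ratio was 0.64 in segment 1, 0.48 in segment 2 and 0.40 (0.19 to 0.60) in segment 3, then 0.85 in segment 4, 0.98 (0.82 to 1.14) in segment 5 and 0.92 in segment 6, and 0.75 to 0.81 in the outer 3. Pooled, it was 0.56 (0.47 to 0.66) over the inner 3 segments, 0.92 (0.82 to 1.02) over the middle 3 and 0.79 (0.69 to 0.89) over the outer 3. The outer value exceeded the inner one by 0.23 (0.09 to 0.36), and by 0.29 (0.11 to 0.47) without the raised fragments. Without them segment 3 had a log2 ratio of 0.23 whose interval included 0 (-0.02 to 0.48), and segment 5 had 0.81 (0.57 to 1.05).

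Contacts with arm regions showed the opposite order. At 25 °C they rose from 1.40 (1.39 to 1.42) in segment 1 to 1.62 in segments 6, 7 and 8, and were 1.55 (1.53 to 1.57) in segment 9. At 37 °C they rose from 1.30 (1.27 to 1.33) in segment 1 to 1.48 (1.45 to 1.52) in segment 7. The mean distance of the partners from their centromeres rose from 107.6 fragments in segment 1 to 119.8 in segment 8 at 25 °C, where 85.3 was expected. At 37 °C it rose from 104.6 in segment 1 to 115.4 in segment 7, where 87.6 was expected.

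**Figure D2:**
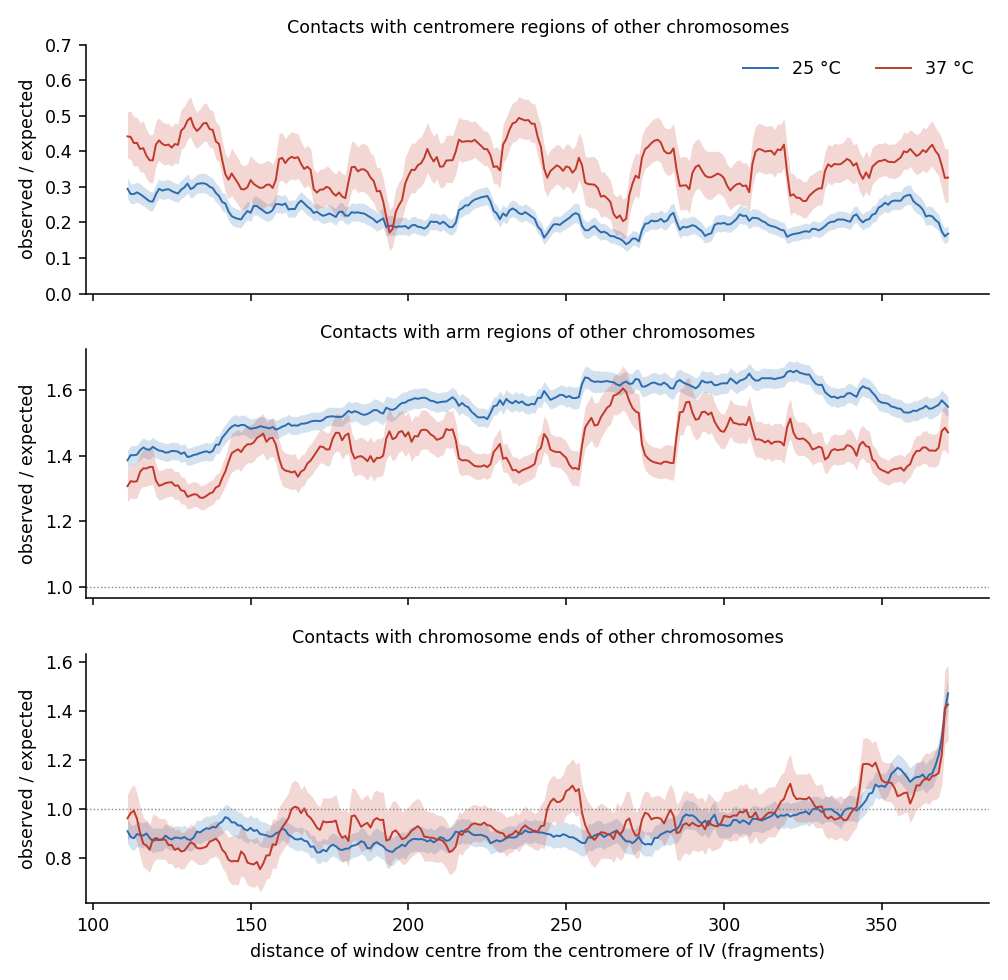
Observed over expected contacts (vertical axes) of windows of 11 fragments along the distal right arm of IV with centromere regions (top), arm regions (middle) and chromosome ends (bottom) of other chromosomes, against the distance of the window centre from the centromere of IV in fragments (horizontal axis). Lines are ratios at 25 °C and 37 °C and bands are 95% counting intervals. Neighbouring windows share fragments. With centromere regions the windows run from 0.139 to 0.310 at 25 °C and from 0.171 to 0.494 at 37 °C, and with ends both lines rise at the outer edge, to 1.47 and 1.43.

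Windows of 11 fragments resolved the profile further. Of 261 windows, 246 had a log2 ratio with centromere regions whose interval lay above 0, against 66.2% of windows over all chromosomes and 90.9% of windows in the arm regions of other chromosomes. For contacts with arm regions, 233 of 261 had an interval below 0, against 47.0% over all chromosomes and 87.0% in other arm regions. The shares for distal IV right were therefore close to those of other arm regions. Overlapping windows are not independent of each other. Once the raised fragments were removed, 191 of 260 windows had an interval above 0 with centromere regions and 109 of 260 had one below 0 with arm regions. Shares over all chromosomes and in other arm regions were not computed without raised fragments, so these counts cannot be set against the shares above.

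Only 2 of the 261 windows had a log2 ratio with centromere regions below 0. The lowest value was in the window centred on row 838, about 992 kb along the chromosome, where the ratio was 0.190 at 25 °C and 0.171 (0.121 to 0.236) at 37 °C. Its log2 ratio was -0.15 (-0.70 to 0.37). The highest values were around row 963, with a log2 ratio of 1.24 (0.93 to 1.54), and around row 885, with 1.22 (0.97 to 1.47). Those windows held 2, 1 and 2 raised fragments.

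At the level of single fragments the counts were small, with a median of 27 contacts with centromere regions at 25 °C and 9 at 37 °C. Of 266 fragments with at least 10 contacts expected in each map, 129 (48.5%) had a ratio more than 1.5-fold higher at 37 °C, against 24.9% of all fragments outside centromere and end regions. The share in the arm regions of other chromosomes was 41.5%. Another 14 (5.26%) were more than 1.5-fold lower, against 4.31% of all fragments and 5.88% in other arm regions. The log2 ratio was above 0 for 224 fragments and below for 42. It was above 0 for 1005 of 1276 fragments in other arm regions and for 2581 of 3734 of all fragments outside centromere and end regions. Intervals lay above 0 for 59 fragments of the arm and below 0 for 1, and such counts were not made for other fragments. The log2 ratio had a median of 0.56, beside 0.48 in other arm regions and 0.23 over all fragments. Of the 129, 13 were among the 39 raised fragments and 116 among the other 227.

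The highest log2 ratios were those of rows 918, 979, 861, 890 and 845, from 2.27 to 2.01. Row 918 had 12 contacts with centromere regions at 25 °C, where 106 were expected, and 12 at 37 °C, where 22.1 were expected, a log2 ratio of 2.27 (0.98 to 3.55). Rows 871, 836, 1013, 905 and 800 had the lowest values that could be computed. Row 871 had 34 contacts at 25 °C and 1 at 37 °C. The interval of its log2 ratio of -2.16 included 0 (-7.50 to 0.42). Rows 838, 949, 965 and 983 had 0 contacts at 37 °C where 13.3 to 25.9 were expected, and a count of 0 allows up to 3. The fragment of row 838, a raised fragment with 12 contacts at 25 °C, was the one with an interval below 0. These extremes were chosen by their values, and their intervals take no account of that.

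Other long arms offered a comparison at the same number of map fragments from the centromere. On XII right this count passes through the ribosomal DNA, whose length in these cells was not measured. The true distance of its outer fragments may therefore differ from that of IV right in the same class. From 100 up to 150 fragments the right arm of IV met centromere regions at 0.281 and 0.425, against medians of 0.303 and 0.428 over 15 other arms. In this class IV right entered only from 106 fragments on, with 44 fragments, and the other arms from 100. The effect of that difference on the order of the arms was not tested. With arm regions it stood at 1.42 at 25 °C, above 14 of the 15, whose median was 1.32. From 150 up to 200 fragments its log2 ratio with centromere regions, 0.45 (0.30 to 0.60), was below those of all 8 other arms that reach so far, which ran from 0.48 for VII left to 0.79 for XIV left. From 200 up to 250 fragments it was 0.92 (0.80 to 1.04), below XII right at 1.06 and above the other 3.

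Beyond that, from 250 up to 300 fragments, XII right alone could be set beside it. The ratios with centromere regions were 0.180 (0.169 to 0.191) and 0.344 (0.315 to 0.375) for IV right, and 0.167 (0.157 to 0.177) and 0.330 (0.305 to 0.357) for XII right. With arm regions they were 1.62 and 1.47 for IV right and 1.62 and 1.48 for XII right. The intervals at centromeres overlapped in both maps. From 300 fragments outwards no other arm had the 20 fragments outside its end that were required here (XII right had 5). In that range the ratio of IV right with centromere regions was 0.199 (0.189 to 0.210) and 0.335 (0.310 to 0.363) from 300 up to 350 fragments and 0.229 (0.213 to 0.245) and 0.387 (0.352 to 0.426) from 350 fragments on. The lowest ratio at 25 °C was therefore reached before the outermost part of the arm.

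Chromosome ends were met according to the length of the arm they belong to. The ends of 11 arms shorter than 80 fragments stood at 0.494 (0.481 to 0.506) at 25 °C, those of 9 arms of 80 to under 150 fragments at 0.993 (0.975 to 1.01), and those of 10 arms of 150 or more at 1.39 (1.36 to 1.41). At 37 °C the values were 0.599 (0.574 to 0.626), 0.961 (0.928 to 0.995) and 1.29 (1.26 to 1.33). The log2 ratio was 0.28 (0.21 to 0.35) for the short arms and -0.10 (-0.15 to -0.05) for the long ones, and the interval for the middle group included 0. Once the raised fragments were removed, the short arms stood at 0.20 (0.10 to 0.30), the middle group at -0.08 (-0.15 to -0.01), and the interval for the long arms included 0 (-0.12 to 0.00). The near-unity ratio over all ends was thus a mixture of low and high values.

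The end of XII right had the highest ratio, with 1.89 (1.81 to 1.98) in the 25 °C map and 1.61 (1.48 to 1.75) in the 37 °C map. The end of I right, on the shortest arm, had the lowest, 0.225 (0.194 to 0.261) and 0.272 (0.200 to 0.361). The end of IX right differed most between the maps, at 0.362 (0.325 to 0.402) and 0.643 (0.567 to 0.726), a log2 ratio of 0.83 (0.59 to 1.06). It was followed by III left at 0.55 (0.34 to 0.76) and VI right at 0.38 (0.20 to 0.55).

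**Figure D3:**
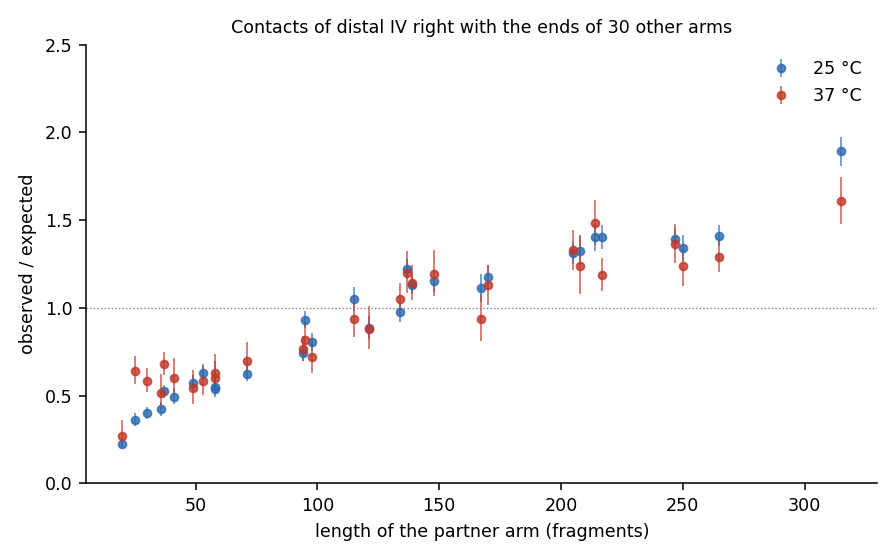
Observed over expected contacts of the distal right arm of IV with the end of each of 30 arms on other chromosomes (vertical axis) against the length of that arm in fragments (horizontal axis), at 25 °C and 37 °C. Points are single ends and bars are 95% counting intervals. Ratios rise with arm length, from 0.225 for the shortest arm to 1.89 for the longest at 25 °C.

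Within the arm, contacts with ends rose at its outer edge. At 25 °C the ratio was 0.838 to 0.954 in segments 1 to 7, 0.996 (0.966 to 1.03) in segment 8 and 1.24 (1.20 to 1.27) in segment 9. At 37 °C it was 1.02 (0.963 to 1.08) in segment 8 and 1.16 (1.11 to 1.22) in segment 9, and the log2 ratio of segment 9 was -0.09 (-0.17 to -0.01). Without the raised fragments segment 9 stood at 1.29 and 1.27, with an interval of the log2 ratio that included 0 (-0.14 to 0.09). In the 25 °C map the rise in segment 9 covered every class of arm length. Against the preceding segment it was 0.665 after 0.475 for short arms, 1.26 after 1.05 for arms of middle length and 1.83 after 1.51 for long arms at 25 °C. At 37 °C the long arms stood at 1.64 after 1.40.

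Contacts of the arm within chromosome IV were set against pairs at the same separation on all other chromosomes, with neighbouring fragments left out. The share of inter-chromosomal contacts was 86.7% (86.62 to 86.79) at 25 °C and 79.8% (79.63 to 79.97) at 37 °C, beside 88.5% and 81.5% over all fragments. Pooled over separations of 2 to 270 fragments, the arm met itself at 1.26 (1.25 to 1.28) and 1.44 (1.42 to 1.46) times the rate at matched separation. The log2 ratio was 0.19 (0.16 to 0.21). Compared with other chromosomes the arm was lower at 2 to 9 fragments in both maps and at 10 to 19 at 25 °C, and higher at larger separations. Its own centromere region was met at 0.171 (0.158 to 0.186) and 0.430 (0.394 to 0.468), on 568 and 526 contacts, a log2 ratio of 1.33 (1.15 to 1.5). That difference was in the same direction as the one at the centromeres of other chromosomes. Its own end was met at 1.95 (1.89 to 2.01) and 1.67 (1.60 to 1.76), a log2 ratio of -0.22 (-0.30 to -0.14). With the inner right arm (1.06 and 1.07) and the left arm (1.04 and 1.05) the intervals of the log2 ratio included 0, and 8896 pairs with the left arm lay farther apart than any pair used for matching. Once the raised fragments were removed, the log2 ratio was 0.24 (0.21 to 0.27) within the arm, 1.25 (1.02 to 1.48) with its own centromere region and -0.14 (-0.25 to -0.04) with its own end.

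The dependence on separation was unusual at short range. At 25 °C contacts within the arm were 4.11 times the inter-chromosomal expectation at 2 to 4 fragments, 0.990 (0.910 to 1.08) at 5 to 9 fragments, 1.02 (0.962 to 1.08) at 10 to 19, and 2.62 (2.54 to 2.69) at 60 to 79. At 37 °C they were 8.44 times at 2 to 4 fragments, 4.21 (3.92 to 4.53) at 5 to 9, 5.91 (5.72 to 6.11) at 20 to 39 and 2.20 (2.06 to 2.36) from 200 up to 250. Averaged over all pairs, empty ones included, contacts 5 to 19 fragments apart at 25 °C were thus no more frequent than the average contact between chromosomes. That average does not describe single pairs. At 5 to 9 fragments 97.7% of pairs were empty at 25 °C, while the largest pair held 35 contacts. The intervals take contacts as independent and do not cover this unevenness. On other chromosomes the value at 5 to 9 fragments was 3.03 at 25 °C and 5.71 at 37 °C.

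Most close pairs held no contact at all. At 2 to 4 fragments 97.1% of pairs within the arm were empty at 25 °C and 91.7% at 37 °C, and at 10 to 19 fragments 96.1% and 80.2% were. Between distal IV right and other chromosomes, 62.3% of pairs were empty at 25 °C and 86.6% at 37 °C. At 25 °C close pairs within the arm were thus more often empty than pairs between chromosomes, although the map is the deeper one. Which step of the authors' processing removed contacts, if any, is not stated in the sources used, so values within the chromosome carry this limit.

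**Figure D4:**
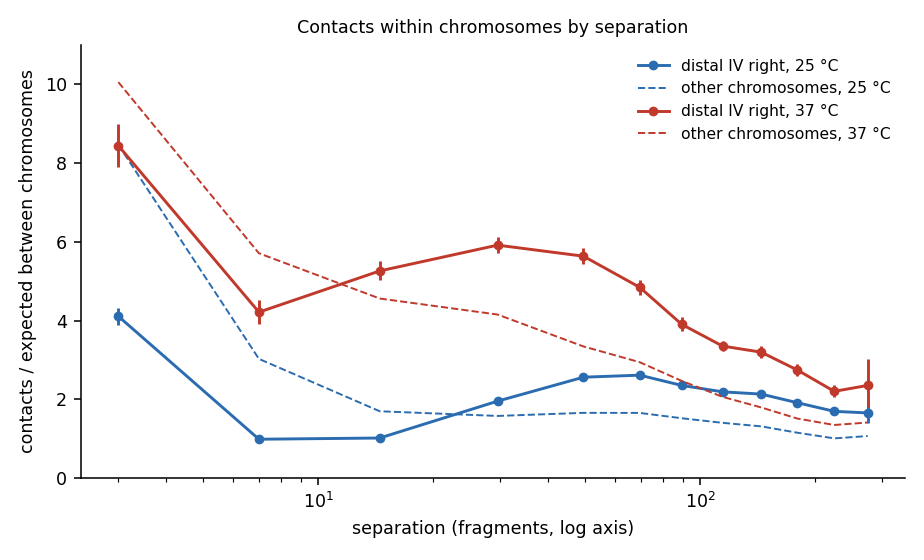
Contacts within chromosomes over the inter-chromosomal expectation (vertical axis) against separation in fragments (horizontal log axis), for pairs inside the distal right arm of IV (solid lines, with 95% counting intervals) and for pairs on other chromosomes (dashed lines), at 25 °C and 37 °C. Inside the arm the 25 °C curve dips to 0.990 at 5 to 9 fragments and rises again to 2.62, and the 37 °C curve lies above it throughout.

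Genes served as landmarks along the arm. Of 58 listed genes, 44 were placed on the rows by interpolation between centromere and chromosome end, and each value is that of a neighbourhood of up to 11 fragments, so it describes a stretch of chromatin and not the gene alone. The error of placement was not measured. Neighbourhoods of genes that lie close together share fragments, so the 44 values are not independent of each other. The log2 ratio with centromere regions had an interval above 0 for 44 of 44, and that with arm regions had one below 0 for 38 of 44. These counts stand beside 246 and 233 of the 261 windows of the arm, and beside 66.2% and 47.0% of windows over all chromosomes. After removal of the raised fragments they were 34 and 21 of 44, beside 191 and 109 of the 260 windows of the arm. No share over all chromosomes was computed in that case. SWI5, AHA1, SPR28, HSP78, BCP1, CDC40, ESF1, RPL12B, RAD30 and RPL37B were the 10 genes whose interval with centromere regions then included 0. CDC40 and ESF1 have the same neighbourhood, and those of RPL12B and RAD30 overlap, so these are fewer than 10 distinct stretches. With raised fragments kept, all 44 genes had median log2 ratios of 0.67 with centromere regions and -0.13 with arm regions. Over all windows of the arm the medians were also 0.67 and -0.13. Medians of single lists with centromere regions ran from 0.58 for the 3 nuclear pore and export genes to 0.91 for the 4 genes of meiosis and spores, and differences between lists were not tested.

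Genes of the heat and stress list, 6 of which were placed, ran the length of the arm. The neighbourhood of HSP42 (chromosome IV, 806621 to 807748), a small heat shock protein, met centromere regions at 0.292 and 0.458, a log2 ratio of 0.65 (0.42 to 0.87). That of AHA1 (892875 to 893927), a co-chaperone that stimulates the ATPase of Hsp90, stood at 0.251 and 0.378, a log2 ratio of 0.59 (0.28 to 0.88). HSP78 (971808 to 974243), a mitochondrial disaggregase, lay at 0.220 and 0.342, with 0.64 (0.29 to 0.98). The peroxiredoxin gene TSA2 (1365072 to 1365662) had 0.182 and 0.283, and TRR1 (1183299 to 1184258), which encodes thioredoxin reductase, had 0.170 and 0.268.

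HSP31 (1501447 to 1502160), a stress-induced chaperone of the DJ-1 family, lay outermost, with a neighbourhood of 6 fragments. It met centromere regions at 0.173 and 0.358, a log2 ratio of 1.05 (0.54 to 1.54), and chromosome ends at 1.65 and 1.52. The 6 log2 ratios of the list, 0.59 to 1.05, had a median of 0.64, beside 0.67 for all windows.

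Sugar genes lay at several depths. ADR1 (895035 to 899006), the activator of glucose-repressed genes, stood at 0.249 and 0.382 with centromere regions. The hexose transporter genes HXT7 (1154216 to 1155928), HXT6 (1159608 to 1161320) and HXT3 (1162957 to 1164660) lie next to one another, and their neighbourhoods overlap. HXT3 stood at 0.190 and 0.362, a log2 ratio of 0.93 (0.58 to 1.26), and its ratio with arm regions was 1.62 and 1.43. MTH1, a repressor of hexose transporter genes, had 0.193 and 0.347, and EMI2 near the outer edge had 0.207 and 0.401.

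Among 8 genes of ribosome biogenesis, UTP4 (1114433 to 1116763), a subunit of the small-subunit processome, had the highest log2 ratio, 1.13 (0.91 to 1.35), from 0.223 to 0.488. BCP1 (1195412 to 1196263), a chaperone of a ribosomal protein, had the lowest, 0.51 (0.08 to 0.92), from 0.154 to 0.220. Of the 6 ribosomal protein genes, RPL12B (1301616 to 1302113) had 0.223 and 0.310, a log2 ratio of 0.47 (0.14 to 0.80), and RPP2B had 0.221 and 0.395. The list had a median log2 ratio of 0.61.

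XRS2 (1215016 to 1217580), of the MRX complex of double-strand break repair, had 0.178 and 0.382, with an interval of 0.81 to 1.38 for the log2 ratio. RAD30 (1303174 to 1305072), a translesion DNA polymerase, had 0.218 and 0.302, with 0.47 (0.13 to 0.80). The S-phase gene SLD5, of the GINS complex, had 0.255 and 0.377. SWI5 (748613 to 750742), a cell-cycle transcription factor at the inner edge of the rows, had the highest ratio with centromere regions at 25 °C among the 44 genes, 0.321, and 0.449 at 37 °C. SPS1 and SPS2, of sporulation, lay near the outer edge, where SPS1 met chromosome ends at 1.47 and 1.43. The SAC3 and NUP42 neighbourhoods, of messenger RNA export, had 0.273 and 0.409 and 0.258 and 0.376.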

How the data were processed

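The values are whole-number contact counts per pair of HindIII fragments, deposited by the authors as 1 matrix per temperature with replicates combined. Reads were aligned with Bowtie 1.1.0 to R64, per the submitters' processing notes. What followed alignment is not given in the sources used here. Neither of the matrices carries names or coordinates, and 0 columns belonged to other samples.

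From the counts, 4382 fragments were paired by order and totals (6 and 1 unpaired, none with over 11 contacts). Chromosome borders came from contact counts (15 of 15 within 1 fragment of those from the 37 °C map alone) and centromeres from contacts between them (16 of 16 alike from a start in the middle; 2 moved by up to 2 fragments with the 25 °C map alone and 5 by up to 4 with the 37 °C map alone). Block sizes correlated at 0.993 with gene spans across chromosomes. Gene positions were interpolated from the RefSeq gene table.

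The lowest 2% of fragments by total in either map were left out. Expected counts were products of fragment factors, found by iterative proportional fitting to the inter-chromosomal totals. Intervals were exact Poisson (ratios) and Clopper-Pearson (shares and ratios between maps), except a normal approximation for the difference between inner and outer segments, and all cover counting error only. Python 3.11.15, numpy 2.4.6, scipy 1.17.1, pandas 2.3.3 and matplotlib 3.10.9 were used, and the code was tested on simulated data.

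Genes came from fixed lists and fragments by the 5 highest and 5 lowest values. Members and lists were chosen with earlier results of these data known. Alternatives were filters, expectation, raised fragments, a cap of 5, thinning of the 25 °C map, smaller regions and, chosen after seeing the data, centromeres placed from 1 map. No restriction fragment sequences were used.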

Additional observations from a re-analysis of the deposited data

How the results depend on the processing

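Of 53 recomputed values, 44 stayed within the limits set for them, 9 moved and 0 changed sign as called values. Without the raised fragments the log2 ratio was 0.58 with centromere regions, -0.067 with arm regions and -0.053 with arm fragments 200 or more from their centromere, the number of partner chromosomes whose interval excluded 0 fell from 14 to 4, and the inter-chromosomal share changed by -10.4 percentage points in place of -6.90. With each pair capped at 5 contacts these were 0.62 with centromere regions, -0.13 with arm regions and -7.29 points for the share; the cap acts more on the deeper 25 °C map. With smaller regions the log2 ratio with ends was -0.024 in place of 0.02, and both intervals included 0. The cause of these shifts was not tested. No paired analysis was possible because the replicates are combined in 1 map per temperature, and for the same reason no replicate could be left out. Depth limits single fragments most, with a median of 9 contacts with centromere regions at 37 °C.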
